A study of Mus musculus with 3 samples.

Results

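The genes described here are 43 mouse genes of fat cell formation and lipid storage, followed across 3 lines of OP9 stromal cells. The members were taken as a fixed list of symbols and matched to the array through the platform's gene table, with older names such as Plin for Plin1, Adfp for Plin2 and Mod1 for Me1 brought up to date. A probe was named for 42 of the 43 genes, the exception being Cebpd. Lep had no value on the OP9-DL array, which left 41 genes with 42 probes measured on all 3 arrays, of 20775 such probes and 14688 named genes in the series. Retn and Cidea lay below the brightness limit described with the data, so 39 genes with 40 probes were compared.

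OP9 is a stromal cell line from newborn calvaria of a B6C3Fe-a/a-Csf1op/Csf1op mouse, a strain whose Csf1op mutation removes working macrophage colony-stimulating factor, and all 3 lines carry that background. The series holds the parental line (OP9, the control), OP9 cells with green fluorescent protein (OP9-GFP), and OP9 cells with both GFP and Delta-like 1, a Notch ligand (OP9-DL). All were kept in aMEM with fetal bovine serum and had no treatment. The sources used here do not say how the transgenes were brought in or whether each line is a single clone. Each line was measured on 1 one-colour array, so no difference has a replicate check, no test could be run, and a line's transgene cannot be told apart from its culture history.

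Fat cells form in steps. C/EBPbeta and C/EBPdelta act early and lead to PPARgamma and C/EBPalpha, which switch on the genes of the mature fat cell: proteins that take up and bind fatty acids, enzymes that make fatty acids and join them into triglyceride, proteins that coat the lipid droplet, lipases that empty it, and secreted hormones such as adiponectin. OP9 cells are known for turning into fat cells readily in culture, and marrow fat cells arise from stromal cells of this kind.

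In these data the genes did not move as a block. The secreted fat cell products adiponectin (Adipoq) and adipsin (Cfd) were by far highest in OP9-GFP, lowest in OP9 and intermediate in OP9-DL. Several enzymes that make and store fatty acids, among them Scd1, Scd2 and Dgat1, together with lipoprotein lipase (Lpl), were highest on the OP9 array and lowest on the OP9-DL array. The master regulator Pparg and its target Fabp4 stayed within 2-fold on all 3 arrays.

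Intensities are the authors' scaled values, with a median of 20 over the probes with a value on each array, and between 6.32% and 6.62% of the 23473 probes were blank per array. The brightness limit was the 25th percentile of a probe's mean log2 intensity over the arrays, an intensity of 6.13, and left 15581 probes to compare. Genes at least 2-fold apart (a log2 difference of 1) were counted as higher or lower, and the 2 probes of Ebf1 were averaged on the log2 scale. A culture with fewer cells of a kind and one with less RNA per cell cannot be told apart. Nearly all members rest on a single probe. Of 125 genes with 2 compared probes, 26 had a probe past 2-fold between OP9-GFP and OP9, and both probes passed the same way for 5 of them. For OP9-DL against OP9-GFP this was 0 of 11 genes, and for OP9-DL against OP9 it was 7 of 30.

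**Figure D1:**
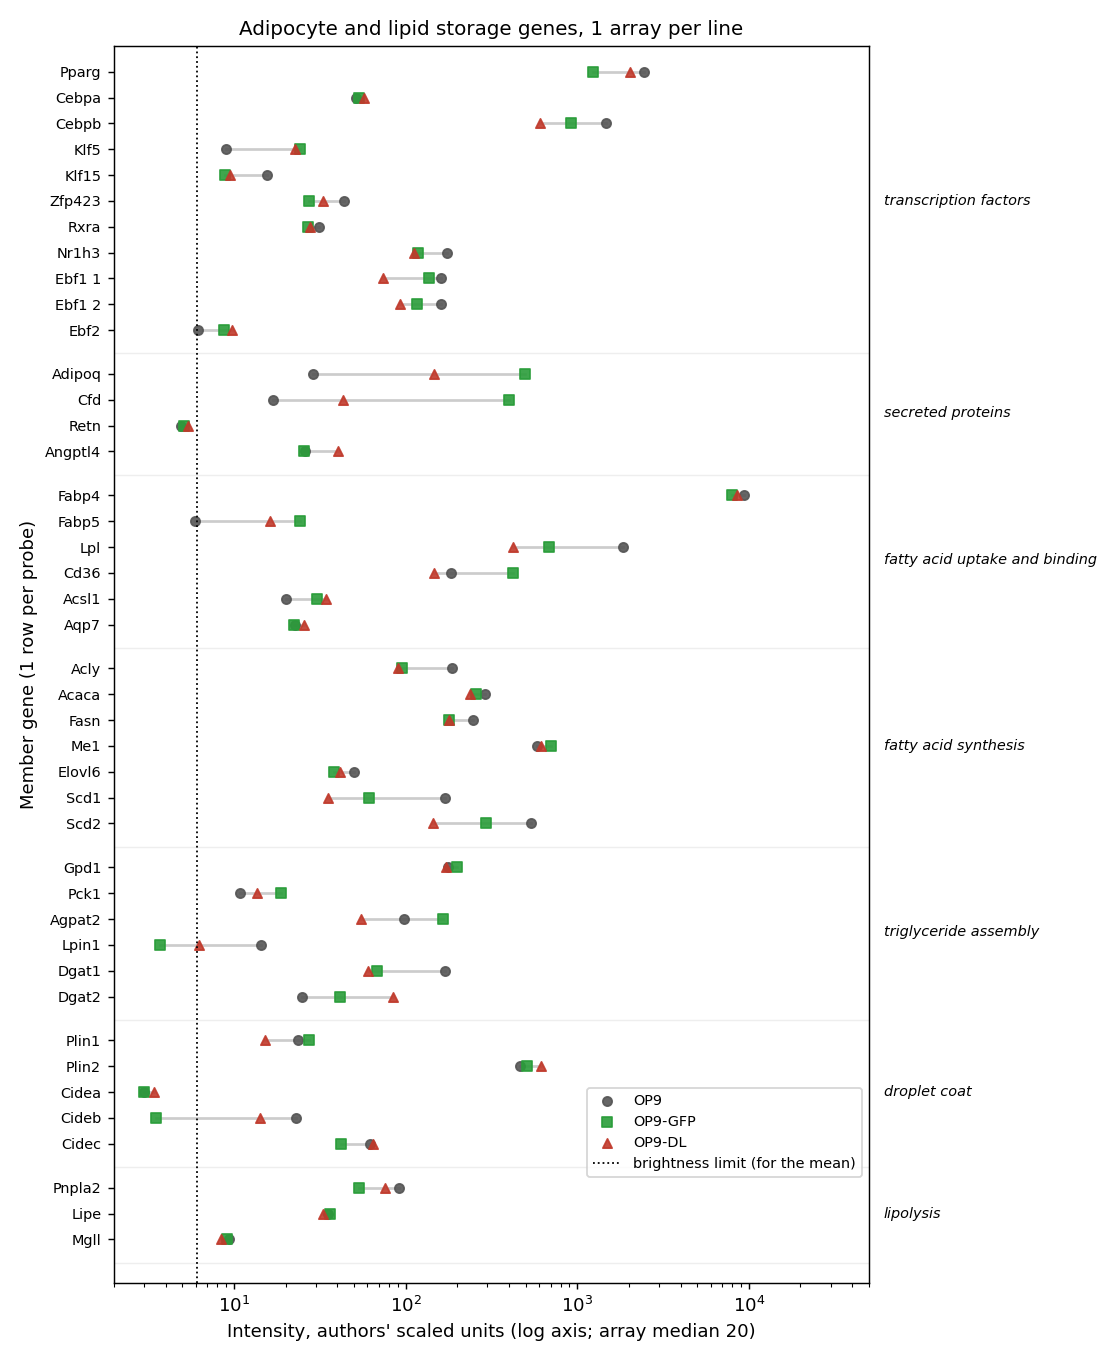
Intensity of each member probe on the OP9 (grey circle), OP9-GFP (green square) and OP9-DL (red triangle) array, on a log axis in the authors' scaled units, with genes grouped by role and a grey line from the lowest to the highest array. Adipoq and Cfd span the widest ranges, from 29.0 to 495.9 and from 17.0 to 399.5, while Fabp4 stays between 8033.0 and 9435.7 on all 3 arrays.

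Between OP9-GFP and OP9, 5 of the 39 genes were higher (12.8%, against 4.86% of all compared probes) and 5 were lower (12.8%, against 6.75%). The higher genes were Cfd, Adipoq, Fabp5, Klf5 and Cd36, and the lower ones Cideb, Lpin1, Scd1, Lpl and Dgat1. The median log2 difference of the members was -0.17, beside 0.02 for all compared probes, so large differences in both directions lay around a middle near 0.

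Between OP9-DL and OP9-GFP, the pair that differs by Delta-like 1 according to the labels, 2 of the 39 genes were higher (5.13%, against 2.31% of probes) and 5 were lower (12.8%, against 2.73%). Cideb and Dgat2 were the higher genes, and Cfd, Adipoq, Agpat2, Cd36 and Scd2 the lower ones. The median was -0.07, beside -0.01 for all probes.

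Between OP9-DL and OP9, 5 genes were higher (12.8%, against 4.33% of probes) and 7 were lower (17.9%, against 6.92%). Adipoq, Dgat2, Fabp5, Cfd and Klf5 were higher, and Scd1, Lpl, Scd2, Dgat1, Cebpb, Lpin1 and Acly were lower. The median was -0.26, beside 0.02 for all probes. The 3 comparisons share arrays, so their counts are not independent of each other.

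**Figure D2:**
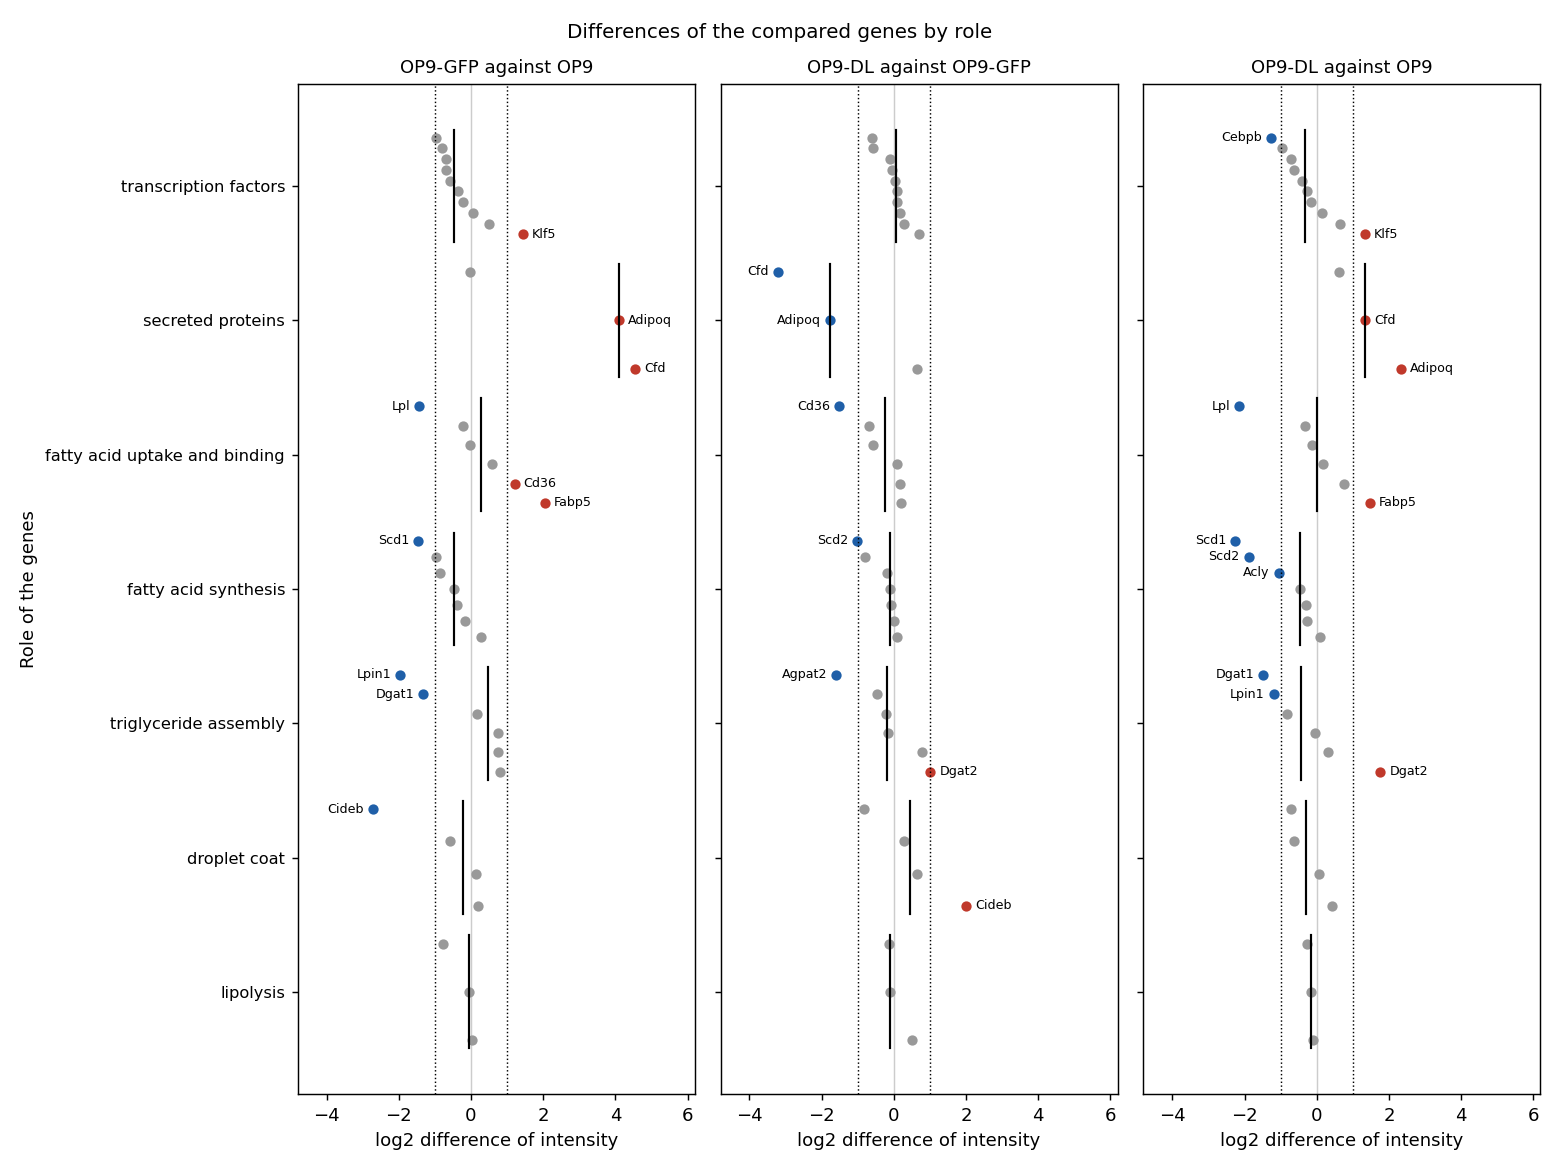
Log2 difference of intensity of the 39 compared genes in each comparison, by role, with the median of each role as a black bar and 2-fold as dotted lines; genes past 2-fold are coloured (red higher, blue lower) and named. Adipoq and Cfd lie far to the right for OP9-GFP against OP9 and to the left for OP9-DL against OP9-GFP, while the 3 lipolysis genes stay within 2-fold in every panel.

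Over the 3 arrays, 15 of the 39 genes (38.5%) differed by 2-fold or more between some pair of arrays, against 17.6% of all compared probes, and 24 stayed within 2-fold throughout. The OP9 array was the highest for 20 genes (51.3%, against 36.5% of probes) and the lowest for 11 (28.2%, against 40.1%). By a look at the order taken after the values were seen, 10 genes (25.6%) stepped down from OP9 to OP9-GFP and again to OP9-DL, against 18.5% of probes: Acaca, Acly, Cebpb, Dgat1, Ebf1, Lpl, Mgll, Nr1h3, Scd1 and Scd2. Another 5 (12.8%, against 18.8%) stepped up, namely Acsl1, Cebpa, Dgat2, Ebf2 and Plin2. Most of these steps were under 2-fold.

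Set against both other lines at 2-fold or more, OP9 stood above for Dgat1, Lpin1, Lpl and Scd1 (4 of 39, 10.3%, against 3.98% of probes) and below for Adipoq, Cfd, Fabp5 and Klf5 (10.3%, against 2.2%). OP9-DL stood below both for Scd2 alone (2.56%, against 1.47%).

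Most transcription factors stayed within 2-fold, with Klf5 and Cebpb as the exceptions. Pparg, the nuclear receptor that fat cell formation requires, read 2443.7 in OP9, 1241.9 in OP9-GFP and 2035.3 in OP9-DL; here and below, 3 readings in a row are intensities in this order of the lines. Its OP9-GFP reading was the lowest, 1.97-fold below OP9, just short of the threshold. Cebpa, its partner in the mature fat cell, was nearly level at 51.1, 53.2 and 57.2. Cebpb, the early C/EBP factor, stepped down through 1464.9, 917.4 and 610.6, and was 2.40-fold lower on OP9-DL than on OP9.

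Klf5, an early activator of Pparg, read 9.0, 24.4 and 22.6. It was higher on both GFP-carrying lines, 2.71-fold on OP9-GFP and 2.51-fold on OP9-DL. Klf15, another Kruppel-like factor of fat cells, had the opposite order with 15.5, 8.9 and 9.5, a difference under 2-fold. Zfp423, a zinc finger protein that marks cells committed to the fat lineage, read 43.7, 27.3 and 33.2.

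Ebf1, which drives both fat cell and B cell formation, was read by 2 probes of similar order. The first read 160.2, 136.6 and 73.6, and the second 161.9, 116.8 and 93.0. Both were lowest on OP9-DL, by 2.18-fold and 1.74-fold against OP9, and their mean did not reach the threshold. Ebf2, a factor of brown fat precursors, was dim and highest on OP9-DL at 6.2, 8.7 and 9.7. The partner receptors stayed within 2-fold: Rxra, which pairs with PPARgamma, read 31.4, 27.1 and 27.9. Nr1h3, the oxysterol receptor LXRalpha, read 174.6, 117.6 and 112.5. Of the 10 factors compared, 7 were lower on OP9-GFP than on OP9 by any amount, against 47.7% of all probes. Their median log2 difference was -0.46, and the median between OP9-DL and OP9-GFP was 0.07.

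The secreted proteins held the largest differences. Adipoq encodes adiponectin, a hormone made almost only by fat cells, and read 29.0 in OP9, 495.9 in OP9-GFP and 146.7 in OP9-DL. It was 17.1-fold higher on OP9-GFP than on OP9, and 3.38-fold lower on OP9-DL than on OP9-GFP. On OP9-DL it still stood 5.06-fold above OP9. Only 0.212% of the compared probes differed as far as Adipoq between OP9-GFP and OP9.

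Cfd encodes adipsin, the complement factor D protease that fat cells secrete. It read 17.0, 399.5 and 43.1, the same order as Adipoq. It was 23.5-fold higher on OP9-GFP than on OP9 and 9.27-fold lower on OP9-DL than on OP9-GFP, with 0.103% and 0.347% of probes at least as far apart. On OP9-DL it was 2.54-fold above OP9. The other hormones of fat cells gave little signal: Lep, leptin, read 1.0 on OP9 and 1.4 on OP9-GFP, and Retn, resistin, was below the limit at 4.9, 5.1 and 5.4. Angptl4, an inhibitor of lipoprotein lipase, read 26.1, 25.7 and 40.3 and stayed within 2-fold.

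Adipoq, Cfd and Cd36, described next, were the members that stood 2-fold or more above both other lines on OP9-GFP, 3 of 39 (7.69%, against 0.789% of probes). Their proximal promoters are printed because these genes share OP9-GFP as their highest line. Each is the 250 bases before the RefSeq start site in GRCm38.p6, 5′ to 3′ on the gene's strand, with matches to any of 4 motifs in capitals. The motifs, searched on both strands with overlaps allowed, were TTGCNNAA (a C/EBP core), AGGTCA (the binding element of a single nuclear receptor), CCAAT and TATAAA. The windows are chr16:23146286-23146535 on the plus strand for Adipoq, chr10:79890603-79890852 on the plus strand for Cfd, and chr5:17835897-17836146 on the minus strand for Cd36.
Adipoq: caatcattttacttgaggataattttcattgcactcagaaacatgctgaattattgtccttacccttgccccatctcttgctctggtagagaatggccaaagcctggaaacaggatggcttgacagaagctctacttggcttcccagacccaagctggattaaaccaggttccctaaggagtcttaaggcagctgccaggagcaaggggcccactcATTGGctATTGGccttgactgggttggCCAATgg
Cfd: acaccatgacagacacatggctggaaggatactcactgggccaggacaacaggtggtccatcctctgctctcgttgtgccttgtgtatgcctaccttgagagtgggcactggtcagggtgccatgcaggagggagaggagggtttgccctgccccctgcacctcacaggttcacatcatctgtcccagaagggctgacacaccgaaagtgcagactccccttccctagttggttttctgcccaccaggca
Cd36: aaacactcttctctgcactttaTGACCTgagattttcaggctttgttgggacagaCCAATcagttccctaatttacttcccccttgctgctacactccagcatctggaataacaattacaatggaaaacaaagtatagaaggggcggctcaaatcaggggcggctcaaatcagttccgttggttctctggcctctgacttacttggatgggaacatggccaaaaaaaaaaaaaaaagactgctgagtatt
Adipoq held 3 CCAAT matches within the last 34 bases before the start, Cd36 held 1 AGGTCA and 1 CCAAT match, and Cfd held none of the 4 motifs in this window. No motif was present in all 3 windows. Promoter windows of 30 of the 43 members were counted, some with several start sites, 42 windows in all. Cidea was among the members left out, so the count does not cover every member. AGGTCA was in 11 of the 42, beside 14.0% of all 32851 windows, and CCAAT in 9, beside 33.8% of all windows. TTGCNNAA was in 5 of the 42, beside 9.56% of all windows, and TATAAA in 3, beside 12.4%. Counted by gene, the motifs in this order were in 9, 8, 5 and 3 of the 30 genes, and no share by gene was computed for all genes. Windows of the same gene can overlap, as those of Aqp7 do, so a match can be counted more than once.

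Genes for fatty acid uptake and binding went different ways. Lpl, lipoprotein lipase, frees fatty acids from circulating lipoproteins and read 1854.9, 682.6 and 422.1. It was highest on OP9, 2.72-fold above OP9-GFP and 4.39-fold above OP9-DL. Cd36, a fatty acid translocase of the plasma membrane, read 182.8, 422.1 and 146.7. It was 2.31-fold higher on OP9-GFP than on OP9 and 2.88-fold lower on OP9-DL than on OP9-GFP, while OP9 and OP9-DL were within 2-fold.

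Fabp4, the fatty acid binding protein aP2 of fat cells, read 9435.7, 8033.0 and 8539.4, so the lines differed by at most 1.17-fold. Fabp5, the epidermal form of the same family, read 5.9, 24.3 and 16.3. It was higher on OP9-GFP and OP9-DL than on OP9, by 4.12-fold and 2.76-fold. Its OP9 reading was below the brightness limit, and adding a constant of 2 to every intensity took the log2 differences from 2.04 to 1.74 and from 1.47 to 1.21. Acsl1, which couples fatty acids to coenzyme A, read 20.2, 30.4 and 34.3, and Aqp7, the glycerol channel of fat cells, read 22.7, 22.4 and 25.6. Neither reached 2-fold.

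Fatty acid synthesis genes were mostly lower on the GFP-carrying lines than on OP9. Of the 7 genes, 6 were lower on OP9-GFP than on OP9 by any amount, against 47.7% of all probes, with a median of -0.47. On OP9-DL 6 were lower than on OP9 by any amount, against 48.3% of probes, with a median of -0.46. Only Scd1 in the first comparison (14.3%, against 6.75% of probes) and Scd1, Scd2 and Acly in the second (42.9%, against 6.92%) were past 2-fold. Scd1 and Scd2 are stearoyl-CoA desaturases, which put the double bond into newly made fatty acids. Scd1 read 170.1, 61.6 and 35.5, and was 2.76-fold lower on OP9-GFP and 4.79-fold lower on OP9-DL than on OP9. Scd2 read 535.6, 295.2 and 145.1, and was 3.69-fold lower on OP9-DL than on OP9. The step from OP9-GFP to OP9-DL was 1.74-fold for Scd1 and 2.03-fold for Scd2.

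Acly, which makes the acetyl-CoA for fatty acids from citrate, read 187.3, 95.0 and 90.7. It was 1.97-fold lower on OP9-GFP and 2.07-fold lower on OP9-DL than on OP9, either side of the threshold. The next enzymes of the pathway were closer between the lines. Acaca, acetyl-CoA carboxylase, read 291.4, 258.4 and 238.6. Fasn, fatty acid synthase, read 246.6, 178.3 and 179.3. Elovl6, which lengthens its product, read 50.4, 38.5 and 41.4. Me1, malic enzyme, which supplies NADPH, was the single gene of the group above OP9 on both other lines, at 584.6, 707.2 and 616.5, and stayed within 2-fold.

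Genes of triglyceride assembly split between the enzymes that do the last step. Dgat1 and Dgat2 encode unrelated acyltransferases that both add the last fatty acid. Dgat1 read 169.8, 68.1 and 60.6, highest on OP9 and lower by 2.49-fold on OP9-GFP and 2.80-fold on OP9-DL. Dgat2 read 24.9, 41.7 and 84.2, the reverse order, 2.02-fold higher on OP9-DL than on OP9-GFP and 3.38-fold higher than on OP9. It was the only compared member that stood 2-fold or more above both other lines on OP9-DL (1 of 39, 2.56%, against 0.969% of probes).

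Agpat2, the acyltransferase that makes phosphatidic acid, read 97.3, 164.6 and 54.8. It was 3.0-fold lower on OP9-DL than on OP9-GFP, and neither line was 2-fold from OP9. Lpin1, the phosphatase that turns phosphatidic acid into diacylglycerol, read 14.4, 3.7 and 6.3, with OP9-GFP below the limit. With the constant added, its difference from OP9 went from -1.96 to -1.52 on OP9-GFP and from -1.19 to -0.98 on OP9-DL. Gpd1, which makes glycerol 3-phosphate, was nearly level at 176.7, 199.8 and 171.4. Pck1, which does so from pyruvate in fat cells, read 10.9, 18.8 and 13.6, within 2-fold.

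Of the droplet proteins, both perilipins stayed within 2-fold. Plin1, the coat protein of large droplets in fat cells, read 23.7, 27.2 and 15.2, and was 1.79-fold lower on OP9-DL than on OP9-GFP. Plin2, the coat protein found in most cells with droplets, read 461.5, 508.9 and 611.6. Among the Cide proteins, which let droplets fuse and grow, Cideb alone passed 2-fold. Cideb, the form best known from liver, read 23.0, 3.5 and 14.1, and was the only compared member 2-fold or more below both others on OP9-GFP (2.56%, against 0.879% of probes). Since 3.5 is below the limit, its folds of 6.57 and 4.03 are not firm, and with the constant added the log2 differences went from -2.72 to -2.18 and from 2.01 to 1.55. Cidec, the form of white fat, read 62.4, 41.8 and 64.9, within 2-fold, and Cidea, the form of brown fat, was below the limit at 3.0, 3.0 and 3.4.

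The lipases that empty the droplet stayed within 2-fold. Pnpla2, the triglyceride lipase ATGL, read 91.6, 53.7 and 75.9. Lipe, hormone-sensitive lipase, read 35.3, 36.3 and 33.2, and Mgll, which splits the last fatty acid from glycerol, read 9.4, 9.1 and 8.4. This held for all 3 lipases in each of the 3 comparisons.

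Close relatives that lie near each other in the genome did not always match. In the RefSeq gene order, Scd1 and Scd2 on chromosome 19 have 1 protein-coding gene between them, and Fabp4 and Fabp5 on chromosome 3 have 2. Scd1 and Scd2 had the same order of lines, whereas Fabp5 differed 4.12-fold between OP9-GFP and OP9 and Fabp4 1.17-fold. Whether the probes tell the Scd genes apart was not tested, so their shared order may not be that of separate genes.

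Genes of the same pathways outside the list were set beside these members. Of the 4 pathway lists, the one with the median farthest from 0 against OP9 was fatty acid oxidation, which burns the lipid that storage genes lay down. Of 21 such genes compared, 19 were lower on OP9-GFP than on OP9 by any amount, where 47.7% of all probes were. At 2-fold or more 6 were lower (28.6%, against 6.75% of probes) and 1 was higher (4.76%, against 4.86%), and the median log2 difference was -0.89, beside 0.02 for all probes. On OP9-DL 18 were lower than on OP9 by any amount, against 48.3% of probes, with a median of -0.78. At 2-fold or more 6 were lower (28.6%, against 6.92%) and 1 was higher (4.76%, close to the 4.33% of all probes). Between OP9-DL and OP9-GFP the median was 0.10, with 1 gene higher, Decr1 (4.76%, against 2.31%), and none lower, and with the constant added Decr1 fell short of 2-fold. Several of these genes lay near 2-fold, and under quantile, lowess or median scaling the number lower than on OP9 was 5 to 7 on OP9-GFP and 4 to 5 on OP9-DL.

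Acadvl, the dehydrogenase of very long acyl chains, read 1266.4, 390.8 and 371.8, more than 3-fold higher on OP9 than on each other line. Ehhadh, a peroxisomal enzyme, read 32.9, 12.8 and 12.8. Decr1, which handles unsaturated acyl chains, read 92.8, 25.5 and 51.7, lowest on OP9-GFP. Slc25a20, the carnitine carrier, stepped down through 62.3, 31.6 and 16.9. Pdk4, a kinase that spares glucose by shutting pyruvate dehydrogenase and is no oxidation enzyme itself, read 24.5, 69.3 and 53.9. It was the only gene of this list 2-fold or more higher than on OP9, on both other lines.

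**Figure D3:**
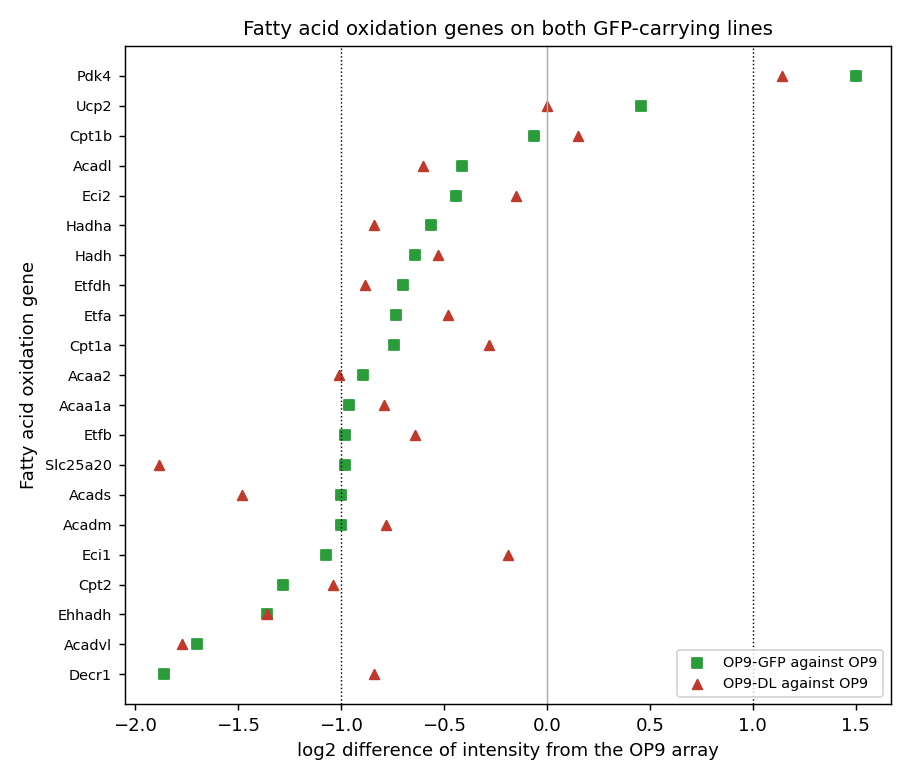
Log2 difference of intensity from the OP9 array for 21 fatty acid oxidation genes, for OP9-GFP (green square) and OP9-DL (red triangle), with 2-fold as dotted lines; both differences use the same OP9 array. Most genes lie left of 0 on both lines, with medians of -0.89 and -0.78, and Pdk4 lies to the right.

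Regulators of fat cell formation outside the list differed in both directions. Of 31 compared, 5 were higher (16.1%, against 4.86% of probes) and 3 lower (9.68%, against 6.75%) on OP9-GFP than on OP9, with a median of -0.17. Between OP9-DL and OP9-GFP, 5 were higher (16.1%, against 2.31%) and 1 was lower (3.23%, against 2.73%), with a median of -0.02, which turned to 0.01 under quantile and lowess scaling. Between OP9-DL and OP9, 6 were higher (19.4%, against 4.33%) and 3 lower (9.68%, against 6.92%), with a median of 0.30. Dlk1, the preadipocyte factor that holds back fat cell formation, read 8.1, 2.2 and 53.2, highest on OP9-DL. Its OP9-GFP reading was below the limit, and adding the constant took the log2 difference between OP9-DL and OP9-GFP from 4.60 to 3.72. Ddit3, the factor CHOP that blocks C/EBP proteins, read 522.1, 190.0 and 640.7, lowest on OP9-GFP.

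Hsd11b1, which activates the glucocorticoids that promote fat cell formation, read 19.5, 210.4 and 1019.9, a rise at each step. Prdm16, a factor of brown and beige fat, read 13.4, 107.9 and 85.0, higher on both GFP-carrying lines. Zfp521, which opposes Zfp423 and Ebf1, read 23.7, 13.2 and 2.4, with OP9-DL below the limit. Srebf1, the activator of the Scd, Fasn and Acly genes, read 70.1, 59.6 and 31.0, and was 2.26-fold lower on OP9-DL than on OP9.

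Of 25 other storage genes, 2 were lower on OP9-GFP than on OP9, Plin3 and Pnpla8 (8.0%, close to the 6.75% of all probes), and none was higher, with a median of 0.02. On OP9-DL Pnpla8 was higher than on OP9-GFP (4.0%, against 2.31%). G0s2 and Lpin3 were higher than on OP9 (8.0%, against 4.33%), and Abhd5 and Plin3 lower (8.0%, against 6.92%). G0s2, an inhibitor of the lipase ATGL, read 255.0, 452.5 and 821.6, highest on OP9-DL.

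Of 12 other markers of mature fat cells compared, Apoe was higher (8.33%, against 4.86% of probes) and Sncg and Adipor2 lower (16.7%, against 6.75%) on OP9-GFP than on OP9, with a median of 0.07. Apoe read 4.3 on OP9, below the limit, and with the constant added its log2 difference went from 1.2 to 0.92, which ended the call. On OP9-DL Sncg and Cav1 were higher than on OP9-GFP (16.7%, against 2.31%), and Cav1 and Cav2 higher than on OP9 (16.7%, against 4.33%). Slc2a4, the insulin-dependent glucose carrier of mature fat cells, was dim and level at 7.3, 7.3 and 7.1. It lay too near the brightness limit of 6.13 to show whether it shared the order of Adipoq and Cfd. Apoe, at 4.3, 9.9 and 7.1, had that order, from an OP9 reading below the limit. The brighter Sncg, at 984.2, 209.0 and 1007.8, and Adipor2, at 641.6, 291.2 and 493.7, did not, and both were lowest on OP9-GFP.

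Of 16 markers of stromal cells, 15 were measured and 11 compared, with summed intensities of 50141.8, 56865.4 and 61323.7. Vim (18420.0, 25328.1 and 32110.4), Col1a2 (6612.6, 5922.4 and 5145.3) and Vcam1 (339.6, 242.6 and 350.3) were bright on every array, while Thy1, Eng, Nt5e and Dcn were below the brightness limit. Other stromal markers differed between the lines. Pdgfra, a receptor of mesenchymal precursors, read 800.6, 166.1 and 127.1, and was 4.82-fold and 6.3-fold lower on OP9-GFP and OP9-DL than on OP9. Col3a1 read 660.5, 936.4 and 195.9, and was 4.78-fold lower on OP9-DL than on OP9-GFP. Cxcl12, a stromal chemokine, read 3720.4, 4411.3 and 1997.4, 2.21-fold lower on OP9-DL than on OP9-GFP. Col1a1 read 269.3, 712.9 and 557.0, 2.65-fold higher on OP9-GFP than on OP9.

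Smooth muscle markers moved in the same direction as Adipoq and Cfd between OP9-GFP and OP9. Of 10 compared, 8 were higher (80.0%, against 4.86% of probes) and none lower, with a median of 1.40. The summed intensity of the 11 measured probes was 9893.2 on OP9, 47027.3 on OP9-GFP and 41196.2 on OP9-DL, of which Acta2, smooth muscle actin, gave 4435.6, 27256.5 and 27654.6. Between OP9-DL and OP9-GFP, 7 of the 10 were lower by any amount, against 51.3% of probes, with a median of -0.48. At 2-fold or more 1 was higher (against 2.31% of probes) and 1 was lower (against 2.73%). Between OP9-DL and OP9, 5 of the 10 were higher, against 4.33% of probes, and none lower, with a median of 1.18. Cnn1, calponin, read 4.6, 181.2 and 35.7, and was 5.08-fold lower on OP9-DL than on OP9-GFP. Its OP9 reading was below the limit, and the constant took its log2 difference between OP9-GFP and OP9 from 5.30 to 4.79. Tagln, an actin-binding protein, read 362.3, 7468.5 and 4078.6, and Actg2, an enteric actin, read 164.9, 2926.1 and 1943.3. These 3 genes had the order of Adipoq and Cfd, highest on OP9-GFP and lowest on OP9. So did Tpm1, Smtn, Cald1 and Lmod1, the last at 11.6 on OP9-GFP and 11.4 on OP9-DL. Acta2, Tpm2 and Des did not. Des, desmin, read 12.6, 7.4 and 21.6, and was the marker higher on OP9-DL than on OP9-GFP. Myh11, the myosin that defines mature smooth muscle, was below the limit at 4.2, 4.7 and 4.8.

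Of 7 osteoblast markers compared, Col1a1 was higher and Spp1 lower on OP9-GFP than on OP9 (14.3% each way, against 4.86% and 6.75% of probes). Spp1, osteopontin, read 26149.4, 5610.9 and 6877.5. Alpl, the alkaline phosphatase of bone, read 91.6, 101.3 and 15.1, and was 6.71-fold lower on OP9-DL than on OP9-GFP. The sums of the 9 measured probes were 27106.3, 7162.6 and 7890.9, most of it Spp1.

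Of 8 markers of macrophages, mast and other blood cells compared, Tpsab1 and Aif1 were lower on OP9-GFP than on OP9 (25%, against 6.75%), and Aif1 went from -1.02 to -0.92 with the constant added. Tpsab1, a mast cell tryptase, read 20.6, 9.0 and 818.9, and was 91.0-fold higher on OP9-DL than on OP9-GFP. The sums of the 14 measured probes were 230.0, 188.7 and 996.6, and Tpsab1 made up most of the last. Other mast cell genes did not share this large difference. Mcpt4 was nearly level at 19.1, 17.8 and 19.8, Cpa3 read 4.9, 8.1 and 6.7, and Tpsb2 was below the limit. Cd14, a monocyte receptor, read 55.6, 34.0 and 23.0, and was 2.42-fold lower on OP9-DL than on OP9. Ptprc, the common blood cell marker, was below the limit on each array at 2.1, 2.5 and 2.8. The part of any of these cell states in the results was not tested.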

How the data were processed

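The deposited values are linear probe intensity from 3 one-colour (Cy5) arrays, 1 per line. Per the labels' protocols, total RNA was amplified to amino allyl RNA, coupled to the dye and then fragmented as Toray, the array maker, prescribes. The authors scaled each array to a median intensity of 20, as seen from the values; the sources used here do not give the scanner, the background correction or the rule for blank cells.

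No further normalization was applied. Log2 was taken of the values as they are. Of 20775 probes without a blank, 15581 at or above the 25th percentile of mean log2 intensity (2.62) were compared. Of 23473 probes, 16631 had 1 gene symbol and 6842 had none or several; 3947 symbols were renamed through a synonym and 62 kept as on the array (RefSeq gene table, GRCm38.p6). Array coordinates were not used; promoter windows are RefSeq's.

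One array per line allows no test and gives no error, and the number of arrays, 3, limits the precision. Differences were counted at 2-fold or more beside the same share of all compared probes. Every member is named; of 9 further lists, the genes farthest past 2-fold were named, at most 3 per list and direction, and further names there were chosen after their values were seen. The members and lists were chosen with earlier results of these data known. The counting was tested on simulated arrays. Alternatives were quantile, lowess (span 0.3) and median scaling, dim limits at 0 or the 50th percentile, an added constant of 2, 1.5-fold or 3-fold thresholds, and only the brightest probe of a gene. The software was Python 3.11.15 with pandas 2.3.3, numpy 2.4.6, statsmodels 0.14.6 and matplotlib 3.10.9.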

Additional observations from a re-analysis of the deposited data

How the results depend on the processing

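Quantile, lowess and median scaling and the brightest probe per gene left each count of members past 2-fold within 1.5 times its value and each median within 0.1, and scaling moved the median of all probes to 0.05 at most. The single calls that depended on scaling lay at the threshold. Under quantile scaling Acly (OP9-DL against OP9) went to -0.94 and Scd2 (OP9-DL against OP9-GFP) to -0.98. Under lowess scaling they went to -0.99 and -0.97, and Pparg (OP9-GFP against OP9) reached -1.04. No member past 2-fold changed direction under these scalings, the constant of 2 or without a dim limit.

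Without a limit on dim probes, the median of 41 members between OP9-GFP and OP9 was -0.05, since Retn and Cidea were added. With the limit at the 50th percentile, 30 members were compared, and 3 were higher and 3 lower for OP9-GFP against OP9. For OP9-DL against OP9-GFP 1 was higher and 5 lower, and for OP9-DL against OP9 3 were higher and 6 lower. The share of all probes past 2-fold under this limit was 12.5%, 4.4% and 11.6%. With a constant of 2 added, 1 member was higher for OP9-DL against OP9-GFP, because Dgat2 went to 0.98. At 1.5-fold the counts higher and lower were 9 and 12 for OP9-GFP against OP9, 6 and 10 for OP9-DL against OP9-GFP, and 8 and 13 for OP9-DL against OP9. The share of all probes past 1.5-fold was 29.4%, 16.2% and 29.0% in these comparisons. At 3-fold they were 3 and 2, 1 and 3, and 2 and 3, and the share of all probes past 3-fold was 3.57%, 1.76% and 4.22%. No paired analysis was possible because each line has 1 array. Dim readings limit the folds of Fabp5, Lpin1, Cideb, Dlk1 and Zfp521.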

Other observations

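Genes of cholesterol synthesis and its SREBP control, which share regulators with fatty acid synthesis, were also measured. Of 13 compared, 10 were lower in OP9-GFP than in OP9 by any amount, against 47.7% of probes (median -0.28, beside 0.02 for all probes). This count was 8 under quantile and median scaling and 11 under lowess scaling. On OP9-DL 11 were lower than on OP9 by any amount, against 48.3% of probes (median -0.41). Only Insig2, which holds SREBP back in the endoplasmic reticulum, and Mvk, mevalonate kinase, were past 2-fold in these 2 comparisons, both lower (15.4%, against 6.75% and 6.92% of probes). In the order OP9, OP9-GFP, OP9-DL, Insig2 read 354.8, 110.8 and 144.5, and Mvk 121.3, 45.8 and 48.9. Between OP9-DL and OP9-GFP none of the 13 reached 2-fold.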
